A study of Rorippa islandica and Rorippa pyrenaica with 24 samples.

Results

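The genes with the most abundant transcripts in young leaves of *R. islandica* and *R. stylosa* were described in air and under water. A gene was included when its CPM (its share of all the counts of a library, scaled to 1000000), averaged over the 8 group means, reached 1000, and 105 of 30646 genes did. These 105 were 0.371% of the 28302 genes with a count in any library. The level itself chose them, so that they were abundant is no result. *R. islandica* plants were grown from seed, while *R. stylosa*, which the sample records list under its synonym *Rorippa pyrenaica*, was propagated vegetatively and separately for each replicate. Potted plants of 3 to 4 weeks were placed in boxes of tap water under a day-night rhythm or kept in empty boxes as controls, and leaves were taken after 24 and 48 h. Each of the 8 groups (*R. islandica* or *R. stylosa*, control or submergence, 24 or 48 h) had 3 libraries, 24 in all, of polyadenylated RNA. Between 24127592 and 66692318 counts per library were assigned to *R. islandica* transcripts. *R. stylosa* 48 h control replicate 1 stood apart in 5 of the 105 genes, described last.

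In the leaves of most plants a small number of genes, many of them for the light-harvesting proteins and the carbon-fixing enzyme of the chloroplast, supplies a large part of the messenger RNA. Water slows the supply of carbon dioxide to the leaf and lowers the light that reaches it, and both enter the regulation of such genes. The files give transcript identifiers, orthogroups (sets of genes of several species that descend from 1 ancestral gene) and coding lengths, but no gene names. No function could therefore be given to any of the 105 genes, and the label "young leaves" was not checked against marker genes. Their coding lengths ran from 159 to 5475 bases with a median of 999, against 1029 for all genes with a count, and 54 of the 105 were shorter than 1000 bases. A long gene collects more reads per transcript molecule, so ranks by CPM are ranks of read share. Ranks per coding length are given beside them for some of the genes.

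Just inside the limit were Roisl.0191s0472 with 1011 CPM and Roisl.0046s1383 with 1005 CPM on average, and just outside it Roisl.0024s0563 with 986 CPM and Roisl.0019s0459 with 978 CPM. Of the 105 genes, 48 reached 1000 CPM in every group, 55 in 4 to 7 groups and 2 in fewer. Averaged over the control groups and over the submerged groups apart, 16 reached the limit in controls only and 6 under water only. A further 85 genes reached 1000 CPM in at least 1 group without reaching it on average.

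The 105 genes held a smaller share of the counts under water in both species. In *R. islandica* their share at 24 h was 35.4%, 34.8% and 35.5% in the 3 control libraries and 23.2%, 23.0% and 22.8% in the submerged ones. At 48 h the controls held 32.9%, 35.0% and 34.8%, and the submerged libraries 22.2%, 19.9% and 20.4%. Those of *R. stylosa* held 30.6%, 31.6% and 33.3% in controls and 25.6%, 23.1% and 26.2% under water at 24 h. The corresponding values at 48 h were 36.5%, 31.7% and 33.2%, and 23.5%, 26.2% and 23.5%. Every submerged library lay below every control library of its species and time, with or without *R. stylosa* 48 h control replicate 1 (36.5%). In RNA of whole leaves, fewer cells of a type and less RNA per cell cannot be told apart. The mean difference was -12.2 percentage points at 24 h and -13.4 at 48 h in *R. islandica*, and -6.90 and -9.36 in *R. stylosa*. The -9.36 includes *R. stylosa* 48 h control replicate 1, the highest control share, and would be smaller in size without it.

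**Figure D1:**
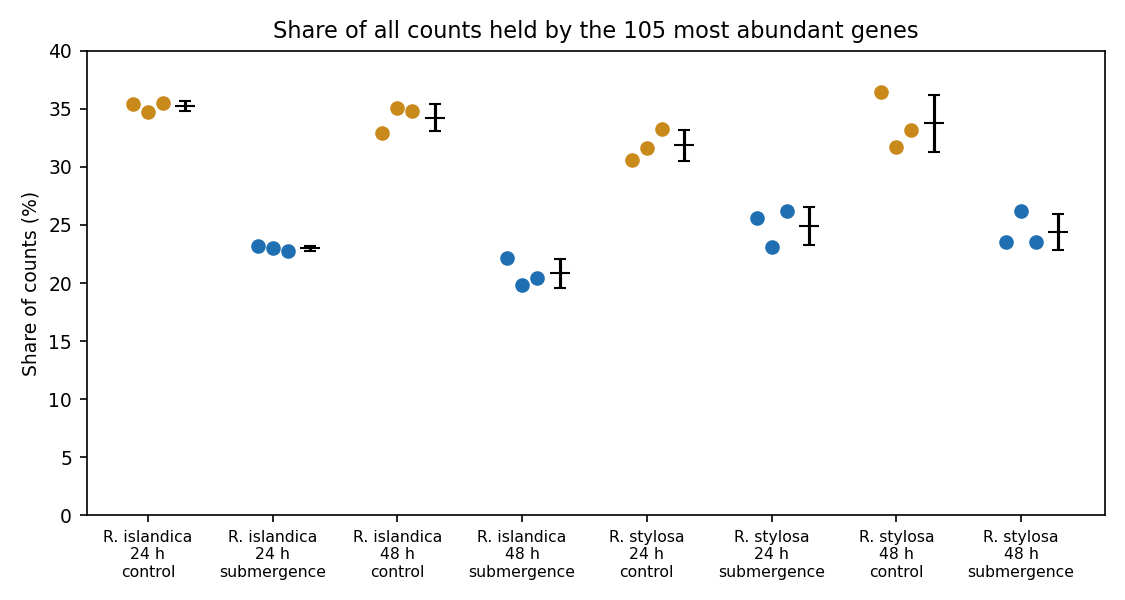
Share of all counts (%, y axis) held by the 105 genes in each library, by group; points are libraries, and the black bar and whiskers are the mean and SD of 3 libraries. Control libraries (ochre) sit between 30.6% and 36.5%, submerged libraries (blue) between 19.9% and 26.2%.

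The counts were also spread over more genes. The number of genes that together held 50% of the counts had a median of 360 in *R. islandica* controls and 729 in submerged leaves at 24 h, and of 378 and 880 at 48 h. In *R. stylosa* the medians were 441 and 745 at 24 h and 398 and 802 at 48 h. By contrast, the 297 genes of the next band, from 300 to under 1000 CPM on average, held between 14.3% and 14.4% of the counts of each *R. islandica* control library and between 15.4% and 16.2% of each submerged one. In *R. stylosa* that band held between 14.4% and 15.2% of the counts of each library, and controls and submerged libraries overlapped.

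A few genes carried much of the loss in *R. islandica*. The 4 genes of orthogroup OG0000028, all among the 105, accounted for -3.70 of the -12.2 points at 24 h and for -3.81 of the -13.4 points at 48 h. In *R. stylosa* the same 4 genes accounted for -0.582 and -0.478 points. The pair of genes in OG0000070, Roisl.0024s0094 and Roisl.0046s0003, gave -1.74 and -1.98 points in *R. islandica* and -1.10 and -1.36 points in *R. stylosa*. The genes that were lower under water lost -14.1 and -15.7 points in *R. islandica* and -8.99 and -10.9 in *R. stylosa*, before the gains of the others. The -10.9 includes Roisl.0214s0332, whose direction in *R. stylosa* at 48 h turned on control replicate 1, described last. Ranked by their loss, 50% of it was reached with 10 genes at 24 h and 11 at 48 h in *R. islandica*, and with 14 and 15 in *R. stylosa*.

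For the tests, edgeR was fitted to all genes that passed its filter on low counts, with TMM scaling, and a gene was called when it differed by more than 2-fold (a log2 fold change beyond 1, glmTreat) at a Benjamini-Hochberg adjusted p under 0.05 over all genes tested. All 105 genes passed the filter. Log2 fold changes are therefore on the TMM scale, on which the median of all genes stayed near 0, whereas CPM divides by the library total. On library totals alone the median of all genes moved up by 0.13 and 0.19 at 24 and 48 h (*R. islandica*) and by 0.21 and 0.29 (*R. stylosa*), so a change in CPM lies above the change in the fit by about that much.

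More of the abundant genes fell than rose. In *R. islandica* at 24 h, 22 of the 105 genes fell and 5 rose, where 10.5% of all 20609 genes tested fell and 11.7% rose. At 48 h, 41 fell and 5 rose, against 13.5% and 12.5% of all genes. In *R. stylosa* at 24 h, 6 fell and 2 rose, against 4.92% and 7.77% of the 19886 genes tested. The 6 became 3 without *R. stylosa* 24 h control replicate 3, and likewise without 24 h submergence replicate 2. At 48 h, 17 fell and 2 rose, against 9.26% and 10.5%. In *R. stylosa* at 24 h the share of the 105 that fell, 5.71%, was thus near that of all genes, while the median log2 fold change of the 105 was -0.62 there against 0.01 for all genes. The other medians were -0.60 and -0.81 in *R. islandica* at 24 and 48 h and -0.69 in *R. stylosa* at 48 h. Tested against no change at all, at the same adjusted p, 14 rose and 74 fell in *R. islandica* at 24 h (35.1% and 34.8% of all genes) and 14 and 81 at 48 h (37.3% and 35.5%). In *R. stylosa* 7 rose and 68 fell at 24 h (28.9% and 27.7%) and 9 and 70 at 48 h (34.0% and 32.7%), so that most of the 105 were lower under water in each comparison. A gene that is high in 1 treatment only can reach the average through it, so the 48 genes at 1000 CPM in every group were also counted. Among them 7 and 16 fell in *R. islandica* at 24 and 48 h, 0 and 8 in *R. stylosa*, and none rose in the 4 comparisons. Scaled to library totals alone, 17, 32, 4 and 7 of the 105 fell in the 4 comparisons, and 6, 6, 2 and 3 rose. On that scaling 2770 of all genes were higher and 1886 lower in *R. islandica* at 24 h, against 2409 and 2174 with TMM, and 3182 and 2334 at 48 h, against 2583 and 2781. It moved the split in *R. stylosa* from 1545 higher and 978 lower to 1981 and 761 at 24 h, and from 2079 and 1841 to 2857 and 1275 at 48 h. On library totals the share of the 105 that fell in *R. stylosa* was thus near that of all genes at both times. It was 4 of 105 against 761 of 19886 at 24 h, and 7 of 105 against 1275 of 19886 at 48 h. In *R. islandica* the share of the 105 that fell stayed above that of all genes.

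In the next band of 300 to under 1000 CPM the directions of the calls past 2-fold were more even: 37 rose and 39 fell of 297 in *R. islandica* at 24 h, and 49 rose and 61 fell at 48 h. In *R. stylosa*, where 294 of the 297 were tested, 21 rose and 19 fell at 24 h and 26 rose and 37 fell at 48 h. Tested against no change, more of this band fell than rose as well. In *R. islandica* 131 fell and 102 rose at 24 h, and 150 and 104 at 48 h. The numbers in *R. stylosa* were 136 and 59, then 149 and 66. Median log2 fold changes of the band were -0.11 and -0.22 (*R. islandica*) and -0.28 and -0.39 (*R. stylosa*), smaller in size than those of the 105. The lean to lower was thus not particular to the 105. Genes outside the 105 that share an orthogroup with one of them numbered 17, of which 13 were tested in *R. islandica*. Of these, 4 fell and 0 rose at 24 h, and 1 fell and 2 rose at 48 h.

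Patterns over several comparisons were counted for the 105 genes only, so they cannot be set against those of all genes. Of the 105 genes, 51 were called in at least 1 of the 4 comparisons and 54 in none. In *R. islandica* 21 genes fell at both times, 20 at 48 h only and 1 at 24 h only. In *R. stylosa* 6 fell at both times and 11 at 48 h only. Both species shared 4 of the genes that fell at 24 h and 15 of those that fell at 48 h. No gene rose in one species and fell in the other at the same time point. That a gene was called in *R. islandica* alone does not show a difference between the species, and of the 18 such genes that fell at 24 h and the 26 at 48 h, the interaction test given further on called 5 and 4.

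The top of the ranking held 7 genes that were among the 20 highest by CPM in all 8 groups: Roisl.0017s0347, Roisl.0024s0094, Roisl.0028s0847, Roisl.0115s0704, Roisl.0209s0788, Roisl.0213s0725 and Roisl.0214s0332. Roisl.0024s0094 had the highest average, and per coding length (546 bases) it ranked first in each of the 8 groups. In *R. islandica* it stood at 27443, 26613 and 26845 CPM in controls and 20166, 19281 and 16685 under water at 24 h. In *R. stylosa* the values were 13412, 18518 and 14206 and 11847, 10435 and 12446 CPM. Submerged libraries lay below controls in both species, and the log2 fold changes of -0.66 and -0.63 were within the 2-fold limit (adjusted p = 1 for both, edgeR). Roisl.0017s0347 led the *R. stylosa* controls at 24 h with 18538, 18600 and 20054 CPM and had 13830, 12861 and 15337 CPM under water. It is 1 of 2 genes among the 105 with more than 1 isoform, and its shorter isoform (1341 against 1425 bases) made up 26.9% to 30.9% of its counts in *R. islandica* controls and 32.5% to 37.0% under water, without overlap. In *R. stylosa* that isoform's share was 22.6% to 23.5% in controls and 23.4% to 25.9% under water at 24 h, with overlap. At 48 h it was 22.8% to 24.1% in controls and 24.8% to 26.9% under water, without overlap. Roisl.0115s0704 and Roisl.0213s0725 stayed in the top 20 with log2 fold changes between -0.89 and -0.31 over the 4 comparisons, none of them called.

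The 20 highest ranks turned over more between air and water than between harvests. Control and submerged leaves shared 11 of 20 genes at 24 h and 9 at 48 h in *R. islandica*, and 15 and 12 in *R. stylosa*. The control harvests of each species shared 19 and 18, and the submerged harvests shared 17 in each. Between the species, 15 and 18 were shared in controls at 24 and 48 h, and 12 under water at both times. The 18 included Roisl.0059s0076 and Roisl.0059s0081, at ranks 12 and 16 in *R. stylosa* 48 h controls and outside the top 20 of its 24 h controls. Both stood apart in *R. stylosa* 48 h control replicate 1, described last. They also count among the 12 shared between air and water in *R. stylosa* at 48 h.

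**Figure D2:**
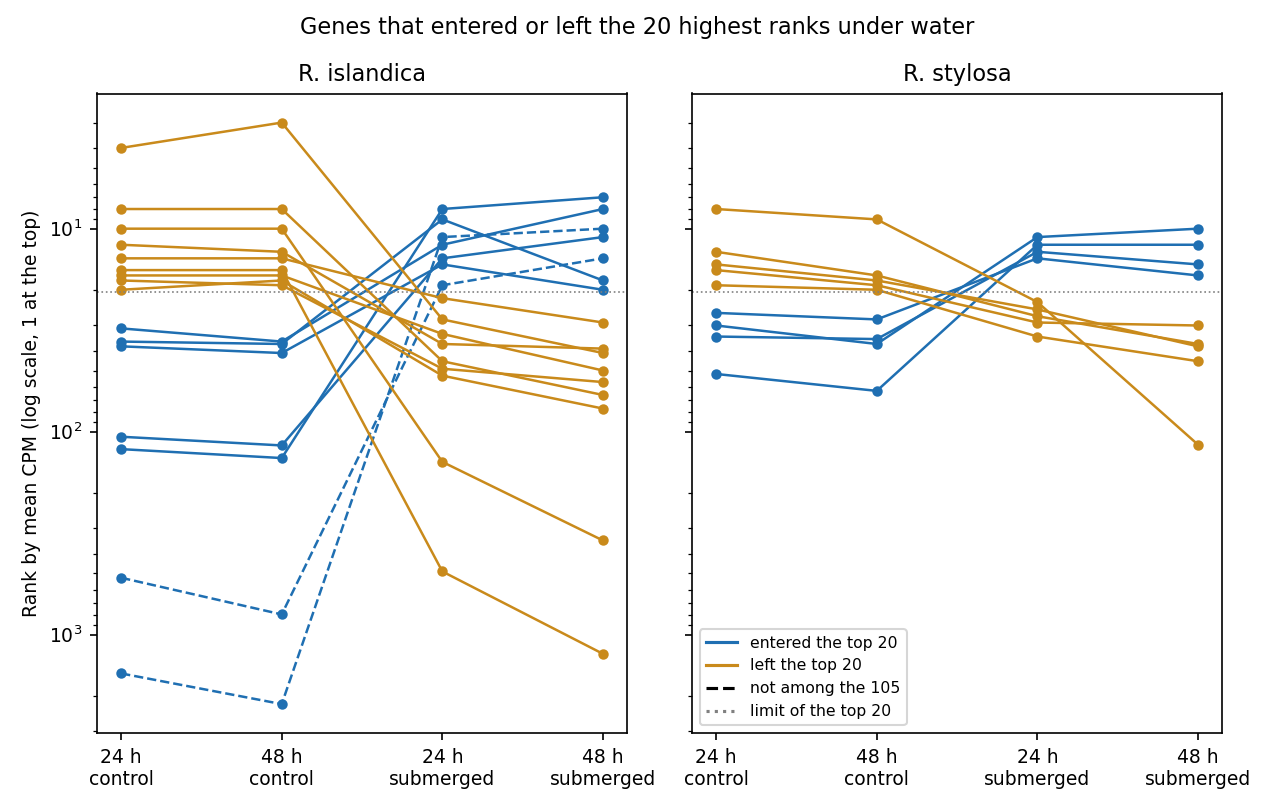
Rank by mean CPM (log axis, 1 at the top) in the 4 groups of each species for the genes that moved into (blue) or out of (ochre) the 20 highest ranks; dashed lines are genes outside the 105 and the dotted line marks the limit of rank 20. In *R. islandica* 9 of the 105 left and 5 entered, and in *R. stylosa* 5 left and 4 entered.

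A gene was taken to have entered the top ranks of a species when it was outside the 20 highest in both control groups and inside in both submerged groups, and to have left in the reverse case. These genes were chosen by the ranks, so their direction is a description. In *R. islandica* 9 left and 5 entered. Ranked per coding length instead, 2 entered and 7 left in *R. islandica*, and 2 entered and 3 left in *R. stylosa*. The genes were not all the same as by CPM. Of the 5 *R. islandica* entrants by CPM, only Roisl.0209s0564 also entered per coding length, from ranks 129 and 150 to rank 14 at both times. No *R. stylosa* entrant by CPM did so. Of the genes that left by CPM in *R. stylosa*, only Roisl.0007s0550 also left per coding length. The steepest falls were those of Roisl.0028s0848, from rank 16 in both control groups to ranks 489 and 1245 under water, and of Roisl.0016s0066, from rank 10 to ranks 141 and 344. Per coding length they went from ranks 18 and 20 to 410 and 990, and from 19 and 16 to 143 and 374.

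Roisl.0016s0066 stood at 5812, 5351 and 6845 CPM in *R. islandica* controls and 1161, 582 and 717 CPM under water at 24 h. At 48 h it had 5893, 6276 and 6685 CPM in controls and 394, 297 and 418 CPM under water. The groups did not overlap, and the log2 fold change was -3.01 ± 0.23 (SE), adjusted p = 2.95e-06 at 24 h and -4.27 ± 0.24 (SE), adjusted p = 9.14e-08 at 48 h (edgeR). In *R. stylosa* the gene remained in the top 20, with 7209, 10289 and 9974 CPM in controls and 5542, 7607 and 4979 CPM under water at 48 h. There the log2 fold change was -0.87 ± 0.23 (SE), adjusted p = 1 (edgeR), so that it was not called.

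The 4 genes of OG0000028 have coding lengths of 801 or 804 bases, and reads that match several of them are divided by estimation, so their separate values are less certain than their sum. Roisl.0213s0255, at rank 4 and 3 in the *R. islandica* controls of 24 and 48 h, had 19107, 19270 and 18386 CPM in controls and 2508, 2556 and 2400 CPM under water at 24 h. At 48 h the values were 16335, 18850 and 17020 and 1528, 1392 and 1668 CPM. It fell by a log2 fold change of -3.06 ± 0.11 (SE), adjusted p = 5.09e-09 and then -3.69 ± 0.11 (SE), adjusted p = 1.01e-09 (edgeR). Its neighbour in the identifiers, Roisl.0213s0254, had 9032, 7978 and 7270 CPM in *R. islandica* controls and 1281, 1238 and 1365 CPM under water at 48 h. Roisl.0028s0848 went from 4330, 4539 and 4325 to 116, 136 and 168 CPM over the same comparison, the largest fall of the 105 genes at 48 h with a log2 fold change of -5.16 ± 0.19 (SE), adjusted p = 1.97e-09 (edgeR). The most abundant of the 4, Roisl.0028s0847, kept its place in the top 20 with 20269, 20339 and 21094 CPM in controls and 9815, 8981 and 9444 CPM under water, a log2 fold change of -1.31 ± 0.11 (SE), adjusted p = 0.00683 (edgeR), a call lost on library totals alone. At 48 h the 4 genes of 1 orthogroup thus covered falls from 2.48-fold to 35.8-fold.

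In *R. stylosa* none of the 4 was called, and their sum was lower in air than in *R. islandica*. Roisl.0213s0255 had 5929, 6301 and 6507 CPM in controls and 4696, 4683 and 4077 CPM under water at 48 h, and Roisl.0213s0254 had 651, 689 and 691 and 715, 677 and 651 CPM. Summed over the orthogroup, the level was 52374, 52446 and 53929 CPM in order of size in *R. islandica* controls and 15150, 15750 and 16980 CPM under water at 24 h. In *R. stylosa* the sum was 16032, 16585 and 18950 CPM in controls and 9689, 11849 and 12562 CPM under water. The sum fell in *R. islandica* by a log2 fold change of -1.85 ± 0.10 (SE) at 24 h and -2.21 ± 0.11 at 48 h (edgeR adjusted p = 3.11e-06 and 1.88e-07), and it was not called in *R. stylosa* (-0.81 ± 0.15 and -0.80 ± 0.15). The reads of both species were assigned to *R. islandica* transcripts, so a level in *R. stylosa* and a loss of reads through sequence differences cannot be told apart.

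**Figure D3:**
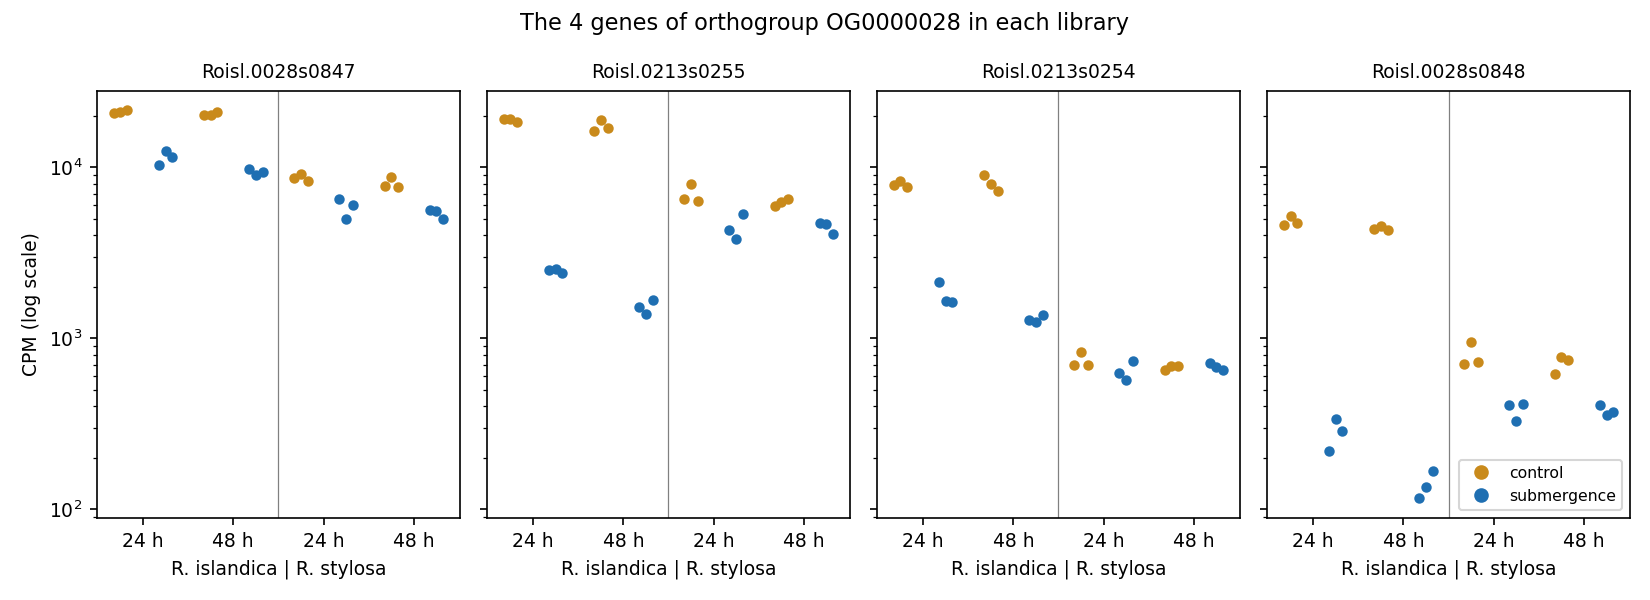
CPM (log axis) of the 4 genes of orthogroup OG0000028 in each of the 24 libraries, 1 panel per gene, with *R. islandica* left and *R. stylosa* right of the grey line, controls in ochre and submerged libraries in blue. In *R. islandica* all 4 are lower under water without overlap, most of all Roisl.0028s0848; in *R. stylosa* Roisl.0213s0254 overlaps between treatments.

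The pair in OG0000070 holds the gene with the highest average, Roisl.0024s0094, and the gene at rank 6 by average, Roisl.0046s0003. The latter had 12502, 10997 and 12579 CPM in *R. islandica* controls and 2444, 1693 and 1945 CPM under water at 48 h, and fell by a log2 fold change of -2.75 ± 0.16 (SE), adjusted p = 5.12e-07 (edgeR), as it did at 24 h (adjusted p = 3.36e-05). In *R. stylosa* it had 13207, 13375 and 16033 and 4470, 6372 and 4720 CPM at 48 h and fell by -1.73 ± 0.22 (SE), adjusted p = 0.00412 (edgeR). The sum of the pair fell in *R. islandica* at 48 h by -1.22 ± 0.11 (SE; edgeR adjusted p = 0.0404) and was not called at 24 h (-0.96 ± 0.11) or in *R. stylosa* (-0.91 ± 0.21 and -1.15 ± 0.21).

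The other genes that left the top 20 of *R. islandica* were Roisl.0007s0550, Roisl.0020s0120, Roisl.0034s0052, Roisl.0052s0022 and Roisl.0209s0454, with ranks between 12 and 20 in controls and between 22 and 77 under water. All 5 fell at 48 h, with log2 fold changes between -1.37 and -1.93, and 3 of them (Roisl.0007s0550, Roisl.0034s0052 and Roisl.0052s0022) also fell at 24 h. Those 3 left the top 20 of *R. stylosa* as well, and all 3 fell there at 48 h and none at 24 h. Roisl.0052s0022 may stand for them, with 4953, 5375 and 5298 CPM in controls and 1664, 1436 and 1561 CPM under water in *R. islandica* at 48 h. In *R. stylosa* it had 3760, 4276 and 4187 and 2254, 1850 and 1626 CPM, with a log2 fold change of -1.38 ± 0.15 (SE), adjusted p = 0.0169 (edgeR). On library totals alone the calls of all 3 genes in *R. stylosa* at 48 h were lost, as was that of Roisl.0034s0052 in *R. islandica* at 24 h, and the call of Roisl.0052s0022 in *R. stylosa* was also lost without control replicate 3 or submerged replicate 3 of 48 h.

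Besides those 3, Roisl.0024s0622 and Roisl.0046s0454 left the top 20 of *R. stylosa*. Roisl.0046s0454 showed the widest range of the 105 genes, its highest group mean being 100.3 times its lowest. In *R. stylosa* controls it had 6634, 4576 and 10234 CPM and under water 612, 1339 and 922 CPM at 48 h, and the log2 fold change was -3.18 ± 0.37 (SE), adjusted p = 0.000151 (edgeR). *R. islandica* had 1929, 1359 and 1253 CPM in controls and 56, 82.4 and 93 CPM under water, a log2 fold change of -4.48 ± 0.24 (SE), adjusted p = 5.81e-08 (edgeR). The gene fell in all 4 comparisons, together with Roisl.0011s0426, Roisl.0082s0276 and Roisl.0115s0722. Its call in *R. stylosa* at 24 h (log2 fold change -1.79 ± 0.35 (SE), adjusted p = 0.0421) was lost in DESeq2, on library totals alone and without any one of 5 single libraries.

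Of the other genes that fell in all 4 comparisons, Roisl.0011s0426 had 2804, 2762 and 2287 CPM in *R. islandica* controls and 564, 910.0 and 849 CPM under water at 48 h. *R. stylosa* had 2548, 2761 and 2518 and 535, 703 and 524 CPM, a log2 fold change of -2.43 ± 0.17 (SE), adjusted p = 5.69e-06 (edgeR). Controls and submerged libraries did not overlap in either species, and the log2 fold change in *R. islandica* was -1.95 ± 0.17 (SE), adjusted p = 7.68e-05 (edgeR). Roisl.0082s0276 likewise had 1401, 1515 and 1514 and 428, 373 and 366 CPM in *R. islandica* and 1507, 1924 and 1779 and 422, 546 and 423 CPM in *R. stylosa* at 48 h. Its log2 fold changes at that time were -2.11 and -2.18, and neither gene had a called interaction. Roisl.0191s0472, the gene beside the limit, had 1080, 1144 and 1035 and 1040, 1027 and 1035 CPM in *R. islandica* at 48 h, not called, and fell in *R. stylosa* from 1183, 1437 and 1280 to 618, 607 and 581 CPM (-1.40 ± 0.10 (SE), adjusted p = 0.00179, edgeR). That call was lost on library totals alone, and the one at 24 h (-1.23 ± 0.10 (SE), adjusted p = 0.0393) also without the filter on low counts, with the replicate number as a block and without any one of 7 libraries.

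Roisl.0024s0622 fell in *R. islandica* at 48 h only, a call lost on library totals alone, without the filter on low counts and without any one of 3 libraries, and was not called in *R. stylosa*, where its log2 fold changes were -1.07 and -1.17.

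Among the genes that entered the top ranks, Roisl.0082s0295 and Roisl.0188s0042 did so in both species. Roisl.0082s0295 had 922, 1044 and 941 CPM in *R. islandica* controls and 3750, 3592 and 3884 CPM under water at 48 h. The log2 fold change was 1.45 ± 0.16 (SE), adjusted p = 0.00879 at 24 h and 1.76 ± 0.16 (SE), adjusted p = 0.000278 at 48 h (edgeR). In *R. stylosa*, with 2058, 1904 and 1596 CPM in controls and 3502, 3898 and 3774 CPM under water, it was not called (0.62 and 0.72). Roisl.0030s0044, of the same orthogroup OG0000001, rose in all 4 comparisons and was the only one of the 105 genes to do so. It had 616, 890.1 and 719 CPM in *R. islandica* controls and 3465, 3498 and 3261 CPM under water at 48 h. In *R. stylosa* it went from 409, 335 and 319 to 2000, 1873 and 2050 CPM, a log2 fold change of 2.19 ± 0.20 (SE), adjusted p = 7.25e-05 (edgeR). When the 6 genes of that orthogroup were summed, the rise was called in *R. islandica* (1.49 ± 0.12 and 1.82 ± 0.12) and not in *R. stylosa* (0.84 ± 0.18 and 1.08 ± 0.18).

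Roisl.0188s0042 moved up without being called. Its CPM in *R. stylosa* was 2712, 3267 and 3335 in controls and 3851, 4691 and 4184 under water at 48 h, with a log2 fold change of 0.17. Roisl.0022s0351 and Roisl.0115s0220, which entered in *R. stylosa* only, were of the same kind. Roisl.0115s0220 had 3128, 3542 and 3732 CPM in controls and 3205, 3085 and 3564 CPM under water at 24 h, and moved from rank 26 to rank 14 while its mean CPM went from 3467 to 3285. At 48 h its mean CPM was 3346 in controls and 3536 under water. Per coding length it already ranked 8 and 9 in controls at 24 and 48 h, and 5 and 6 under water. The other entrants of both species had a higher mean CPM under water at both times.

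The remaining entrants of *R. islandica* were Roisl.0209s0564, Roisl.0037s0019 and Roisl.0213s0698. Roisl.0209s0564 rose, from 787, 1077 and 972 CPM in controls to 3395, 5189 and 4868 CPM under water at 24 h, from rank 122 to rank 8. The log2 fold change was 2.12 ± 0.23 (SE), adjusted p = 0.00021 at 24 h and 2.22 ± 0.23 (SE), adjusted p = 9.7e-05 at 48 h (edgeR). In *R. stylosa* it had 555, 691 and 651 and 1659, 1139 and 1276 CPM and was not called. Roisl.0213s0698 entered without a call in *R. islandica* (0.38 and 0.01) but rose in *R. stylosa*, from 375, 456 and 463 to 2359, 1196 and 2100 CPM at 48 h. With 381 coding bases its rank per coding length in submerged *R. islandica* was 4 and 6 at 24 and 48 h, where its rank by CPM was 9 and 18. In *R. islandica* controls it already ranked 11 per coding length at both times, against 36 and 37 by CPM.

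A further pair of genes entered the top 20 of *R. islandica* but missed the limit of 1000 CPM on average, with almost no read of *R. stylosa* counted on them. Roisl.0019s0459 had 104, 106 and 72.2 CPM in *R. islandica* controls and 3542, 3922 and 3780 CPM under water at 24 h. Roisl.0213s0694 had 217, 229 and 234 and 2842, 3199 and 3132 CPM. In the 12 *R. stylosa* libraries both stayed under 1 CPM.

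The difference between the species in the response to submergence was tested in 1 model of all 24 libraries, as the log2 response of *R. islandica* minus that of *R. stylosa*. At 24 h, 2 of the 105 genes had a more positive and 6 a more negative response in *R. islandica*, where 2.64% and 4.04% of 22226 genes did. At 48 h there were 2 and 7, against 3.25% and 5.02% of all genes. As shares of the 105 these were 1.9% and 5.71% at 24 h and 1.9% and 6.67% at 48 h, near those of all genes. Against no difference at all, 25 of the 105 were called at 24 h and 37 at 48 h, which is 23.8% and 35.2%, against 32.9% and 37.8% of all genes. The negative ones at 24 h were Roisl.0028s0848, Roisl.0016s0066, Roisl.0213s0255, Roisl.0115s0722, Roisl.0201s0006 and Roisl.0213s0254, and at 48 h Roisl.0213s0698 was added.

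Of the 6 negative genes at 24 h, 3 belonged to OG0000028. Roisl.0028s0848 had an interaction of -2.97 ± 0.23 (SE), adjusted p = 8.66e-07 at 24 h and -3.96 ± 0.24 (SE), adjusted p = 9.36e-09 at 48 h (edgeR). For the sum of the orthogroup the interaction was -1.06 ± 0.17 at 24 h, which was not called (adjusted p = 0.858), and -1.44 ± 0.17 at 48 h, which was (adjusted p = 0.0291). Roisl.0016s0066, alone in its orthogroup, had -2.23 ± 0.33 (SE), adjusted p = 0.00331 and -3.40 ± 0.33 (SE), adjusted p = 5.16e-06 (edgeR). Roisl.0201s0006 had 3606, 2853 and 2433 CPM in *R. islandica* controls and 69.2, 138 and 217 CPM under water at 48 h, against 2168, 2656 and 2443 and 834, 1252 and 856 CPM in *R. stylosa*. The fall in *R. stylosa* at 48 h (-1.58) was lost in DESeq2, on library totals alone and without *R. stylosa* 48 h submergence replicate 1 or 3. Its interaction of -1.97 ± 0.40 (SE), adjusted p = 0.0426 at 24 h was lost in DESeq2 and without any one of 9 libraries, while that at 48 h (-3.0 ± 0.40 (SE), adjusted p = 0.000251) was called in each alternative.

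Roisl.0115s0722 fell in both species, and more in *R. islandica*. It had 1801, 2150 and 1852 CPM in *R. islandica* controls and 123, 115 and 120.1 CPM under water at 24 h. The *R. stylosa* values were 3001, 2967 and 3856 and 1078, 606 and 1257 CPM. The log2 fold changes were -4.15 ± 0.16 (SE), adjusted p = 3.68e-09 and -1.96 ± 0.36 (SE), adjusted p = 0.0202, and the interaction was -2.20 ± 0.40 (SE), adjusted p = 0.0154 (edgeR). The call in *R. stylosa* at 24 h was lost without control replicate 3 or submerged replicate 2 of 24 h. The interaction at 48 h (-1.96 ± 0.40 (SE), adjusted p = 0.0398) was lost in DESeq2, with the replicate number as a block and without any one of 6 libraries, and that at 24 h in DESeq2 and without *R. stylosa* 24 h submergence replicate 3.

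Positive interactions at both times belonged to Roisl.0037s0019 and Roisl.0074s0158. Roisl.0037s0019 fell in *R. stylosa*, from 1545, 1588 and 1645 to 483, 541 and 458 CPM at 48 h. In *R. islandica* it had 2953, 2579 and 2726 CPM in controls and 4268, 4335 and 4064 CPM under water, not called at a log2 fold change of 0.44. Its interaction was 1.95 ± 0.15 (SE), adjusted p = 1.85e-05 at 24 h and 2.40 ± 0.15 (SE), adjusted p = 1.35e-07 at 48 h (edgeR). Roisl.0074s0158 rose in *R. islandica*, from 263, 388 and 328 to 2485, 3000 and 2649 CPM, and had 517, 606 and 721 and 993, 1288 and 1223 CPM in *R. stylosa*. Its interaction was 2.18 ± 0.23 (SE), adjusted p = 0.000256 and 2.22 ± 0.23 (SE), adjusted p = 0.00015 (edgeR).

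**Figure D4:**
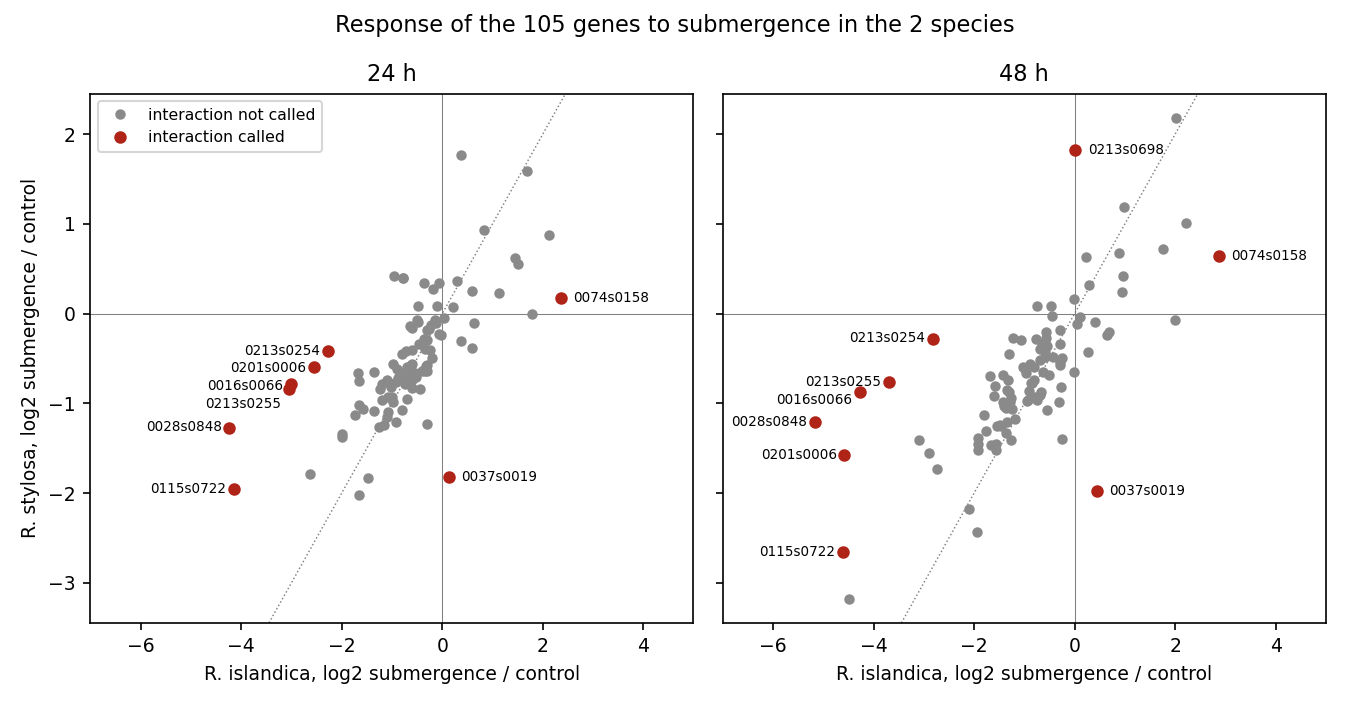
Log2 fold change of submergence against control in *R. islandica* (x axis) and *R. stylosa* (y axis) for the 105 genes at 24 h and 48 h; each point is a gene, red points are those with a called difference between the species, and the dotted line marks equal responses. Most points lie below 0 on both axes (medians -0.60 and -0.62 at 24 h), with 8 red points at 24 h and 9 at 48 h.

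Levels also differed between the species within a treatment. In controls, 8 of the 105 genes were higher and 4 lower in *R. islandica* at 24 h (17.3% and 14.0% of all genes), and 5 and 5 at 48 h (17.1% and 13.4%). Under water 4 were higher and 10 lower at 24 h (18.6% and 17.7%), and 2 and 15 at 48 h (18.4% and 17.2%). Tested against no difference, 61 and 60 of the 105 were called in controls (70.8% and 70.1% of all genes) and 62 and 76 under water (75.3% and 74.5%). Past the 2-fold threshold each share of the 105 lay under that of all genes, the highest being the 14.3% lower in *R. islandica* under water at 48 h, and the levels of both species had chosen the genes. A large difference within the 105 was that of Roisl.0191s0150, with 37.6, 59.3 and 76.6 CPM in *R. islandica* controls and 2266, 2323 and 2224 CPM in *R. stylosa* controls at 24 h. The gene rose under water in *R. islandica* at 48 h only. Its level lay more than 2-fold from its group's other libraries in *R. islandica* 24 h submergence replicate 1 and 48 h control replicates 1 and 3. It was named after its values were seen, and how well *R. stylosa* reads match each transcript was not tested.

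From 24 to 48 h of submergence none of the 105 genes was called in either species, where 0.0825% of all genes were in *R. islandica* and 0.0% in *R. stylosa*. DESeq2 also called none, and at an unadjusted p under 0.05 edgeR had 4 of the 105 in *R. islandica*, against 1.95% of all genes, and 1 in *R. stylosa*, against 0.935%. When tested against no change at all, 52 fell and 1 rose in *R. islandica* (14.9% of all genes differed) and none differed in *R. stylosa* (1.01%). The controls of the 2 harvests were not subtracted here, so time under water and day of harvest cannot be told apart. The lowest value in both species was that of Roisl.0046s0454, with log2 differences of -1.73 (*R. islandica*) and -1.46 (*R. stylosa*).

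Most of the 105 genes varied little among replicates, and 1 library stood apart in more genes than any other. In *R. stylosa* 48 h control replicate 1, 5 genes lay more than 2-fold above their group's other libraries: Roisl.0214s0332, Roisl.0209s0788, Roisl.0059s0076, Roisl.0059s0081 and Roisl.0059s0080. Roisl.0214s0332, the second most abundant of the 105 by average and the longest of the first 10 with 3132 bases, had 51211, 8541 and 11472 CPM in the 3 controls at 48 h and 19067, 17291 and 20059 CPM under water. At 24 h its controls had 12721, 3732 and 14508 CPM. Roisl.0209s0788 had 19577, 3907 and 4535 CPM in the 48 h controls and 5763, 5821 and 5936 CPM under water. Neither was called in *R. stylosa*, and the direction at 48 h turned on that library: with it, the log2 fold changes of the 5 genes lay between -0.99 and -0.65, and without it between 0.19 and 0.63, none of them called. The same 5 genes were lowest of the 24 h controls in replicate 2. There Roisl.0214s0332, Roisl.0059s0076 and Roisl.0059s0081 lay more than 2-fold below their group's other libraries. Roisl.0209s0788 also lay more than 2-fold below them in *R. islandica* 48 h control replicate 1. Whether the plants of these replicates differed in some other way was not tested.

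**Figure D5:**
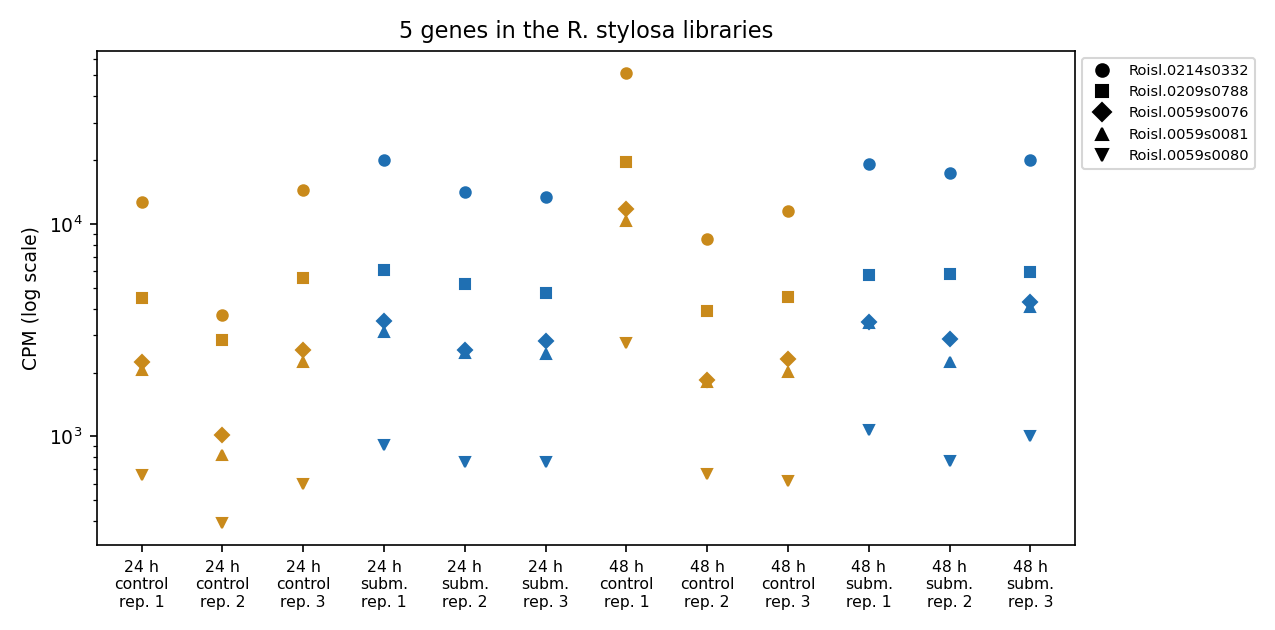
CPM (log axis) of the 5 genes that stood apart in *R. stylosa* 48 h control replicate 1, in each *R. stylosa* library, controls in ochre and submerged libraries (subm.) in blue, 1 symbol per gene. All 5 peak in that library, where Roisl.0214s0332 reaches 51211 CPM.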

How the data were processed

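Leaf RNA-seq of *R. islandica* and *R. stylosa* was analysed. The authors checked the reads with FastQC 0.12.0 and, with kallisto, placed the reads of each species on the transcripts of *R. islandica*. The deposited tables hold its expected counts (estimated counts) per transcript and library, not normalized, beside the orthogroup and the coding length; both were used as the authors' other values. The codes 1 and 2 in the column names were read as 24 and 48 h and the Roman numerals as replicates. Isoforms were summed per gene and rounded for the fits. The depth of 24127592 to 66692318 counts per library leaves little counting error at 1000 CPM.

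The members and lists were chosen with earlier results of these data known. Named genes were the 10 with the highest averages, those that entered or left the top 20 of a species, the 5 that rose and the 5 that fell most at both times per species, the 3 largest interactions in each direction per time, genes called in opposite directions, and those beside the limit. Models in edgeR 4.0.16 (R 4.3.3) used filterByExpr, TMM, estimateDisp, glmQLFit and glmTreat with a log2 threshold of 1, on 12 libraries per species (20609 genes of *R. islandica*, 19886 of *R. stylosa*) or on all 24 (22226 genes), with Benjamini-Hochberg adjustment over all genes, after a test on simulated counts. Alternatives were DESeq2 1.42.0, other scalings, no filter, a test against no change, the threshold after the test, a replicate block, each library left out and other definitions of the members and ranks. Scaling to the counts outside the members and sums over orthogroups were chosen after seeing the data.

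Replicate numbers were taken as pairs where the deviations of all 3 same-numbered libraries from their group means correlated above 0.1. In *R. islandica* this held between the 24 h treatments (0.40, 0.12 and 0.19) and between the submerged harvests (0.18, 0.13 and 0.15), and it held for no other groups compared.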

Additional observations from a re-analysis of the deposited data

Results flagged for a closer look

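A test of the difference between the species called 8 genes at both times and 1 at 48 h only, as the log2 response of *R. islandica* minus that of *R. stylosa* at 24 and 48 h (edgeR). More positive and more negative ones made up 1.9% and 5.71% of the 105 at 24 h, against 2.64% and 4.04% of all genes. At 48 h they made up 1.9% and 6.67%, against 3.25% and 5.02%, so the counts were near the shares of all genes. The difference was -2.97 and -3.96 for Roisl.0028s0848, -2.22 and -2.94 for Roisl.0213s0255, -1.86 and -2.55 for Roisl.0213s0254 and -2.23 and -3.4 for Roisl.0016s0066. It was -1.97 and -3.0 for Roisl.0201s0006 and -2.2 and -1.96 for Roisl.0115s0722, and at 48 h -1.82 for Roisl.0213s0698. It was 1.95 and 2.4 for Roisl.0037s0019 and 2.18 and 2.22 for Roisl.0074s0158. The call of Roisl.0201s0006 at 24 h was lost in DESeq2 and without any one of 9 libraries, and those of Roisl.0115s0722 were lost in DESeq2 and, at 48 h, without any one of 6 libraries and, at 24 h, without *R. stylosa* 24 h submergence replicate 3. For the sum of the orthogroup that holds Roisl.0028s0848, Roisl.0213s0255 and Roisl.0213s0254, the difference was -1.06 at 24 h, not called (adjusted p = 0.858, edgeR), and -1.44 at 48 h (adjusted p = 0.0291).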

How the results depend on the processing

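Of 531 recomputed counts, 463 stayed within 1.5 times the reported value, and of 1769 recomputations of the 77 called values of named genes none changed sign and 72 were no longer called. Only values already called were recomputed there, and the test against no change and the threshold after it could not lose a call. Values that were not called could change sign: in *R. stylosa* at 48 h the 5 genes that stood apart in control replicate 1 went from log2 fold changes of -0.99 to -0.65 to values of 0.19 to 0.63 without it. On library totals alone, 7 genes fell in *R. stylosa* at 48 h, a share near that of all genes (1275 of 19886). Tested against no change, 14 genes rose and 74 fell in *R. islandica* at 24 h and 14 and 81 at 48 h, 7 and 68, then 9 and 70, in *R. stylosa*, 53 differed between the submerged harvests of *R. islandica*, 25 and 37 had an interaction, and 61, 60, 62 and 76 differed between the species (24 and 48 h controls, 24 and 48 h submerged). With the 2-fold threshold applied after that test, 19 fell in *R. stylosa* at 24 h, 4 rose and 30 fell at 48 h, 5 differed between the submerged harvests of *R. islandica*, 17 had an interaction at 48 h and 16 differed between the species in 48 h controls.

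Among the genes at 1000 CPM in all 8 groups, 0 rose in each comparison of treatments, 7 and 16 fell in *R. islandica*, 0 and 8 in *R. stylosa*, 1 and 1 had an interaction, and 4, 2, 0 and 2 differed between the species. Among those at 2000 CPM or more on average, 1 rose in each comparison, 13 and 22 fell in *R. islandica*, 2 and 11 in *R. stylosa*, 4 and 5 had an interaction, and 6, 6 and 8 differed between the species in 48 h controls and the submerged groups of 24 and 48 h. Fewer genes were counted there by construction. At 500 CPM 218 genes were included and at 2000 CPM 47.

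In the top 10, 2 entered and 4 left in *R. islandica* and 0 and 1 in *R. stylosa*, and in the top 50 10 and 15, and 8 and 8. Per coding length 2 entered in *R. islandica*, and 2 entered and 3 left in *R. stylosa*, not all of them genes that did so by CPM. At 48 h only, 8 entered in *R. islandica*, and 8 entered and 8 left in *R. stylosa*.

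In the fit with a replicate block, 7 genes differed between the species in 24 h controls, against 12 without it. In *R. islandica*, where the numbers paired libraries, the block gave 6 that rose and 22 that fell at 24 h and 0 between the submerged harvests, and changed no call of a named gene there. Leaving out 1 library, 3 to 7 genes fell in *R. stylosa* at 24 h, the lowest count without 24 h control replicate 3 or without 24 h submergence replicate 2, and 12 to 23 at 48 h. The other counts stayed within 1.5 times. The cause of these differences was not tested.

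With 3 libraries per group and a threshold of 2-fold, changes a little beyond 2-fold can go uncalled. The assignment of *R. stylosa* reads to *R. islandica* transcripts limits comparisons of level between the species.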
